A study of Mus musculus with 12 samples.

Results

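The D cyclins Ccnd1, Ccnd2 and Ccnd3 and the kinases Cdk4 and Cdk6 were followed across 12 mouse tumours by bulk RNA sequencing. The genes were chosen by name, as the D-type cyclins and the kinases that palbociclib inhibits, with no threshold on a measured value, although earlier results of these data were known. They make up 5 of the 54532 genes counted, and all 5 passed the low-count filter that left 15650 genes for testing.

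Every sample was a malignant peripheral nerve sheath tumour, an aggressive sarcoma of the nerve sheath, from mice labelled strain C57B/6 and genotype WT. All tumours, controls included, had been started with an adenovirus carrying Cas9 against Nf1 and against Cdkn2a, if the spelling Cdk2na in the labels means that gene. There were 4 tumours in each of 3 groups. Vehicle tumours came from mice given the vehicle each day by oral gavage and were taken at the terminal harvest. Regressing tumours came from mice given daily 100 mg/kg palbociclib, which blocks CDK4 and CDK6, and 1 mg/kg mirdametinib, which blocks MEK, and were taken while shrinking. Terminal combination tumours had the same drugs and doses and were taken at the terminal harvest. The design text names combination-sensitive and combination-resistant tumours, but the labels do not say which treated group is which. Harvest stage and tumour state cannot be told apart for the regressing group. No label states that each tumour came from its own mouse, so p-values speak only to the variation among these samples, and sex and age are not given in the sources used here.

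D cyclins are the part of the cell cycle engine that responds to growth signals: RAS, MEK and ERK signalling raises their transcription, and the proteins turn over fast. A D cyclin bound to CDK4 or CDK6 phosphorylates RB, which releases E2F factors to transcribe genes of DNA synthesis. The INK4 proteins, among them the p16 product of Cdkn2a, bind CDK4 and CDK6 and block this step, and loss of NF1 and CDKN2A is typical of these tumours. Transcript counts, the measurement here, report neither protein nor kinase activity.

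The libraries held 13194699 to 22639625 counted reads, and the lowest count of any of the 5 genes in any library was 409, for Ccnd2. Levels are given as CPM, depth-adjusted counts, with the library size adjusted by the TMM method, and as CPM per kb of exon where genes are compared with each other. Markers of non-tumour cells differed between libraries. The summed level of 12 skeletal muscle genes ran from 672 to 11070 CPM in vehicle, 4734 to 63850 CPM in regressing and 3188 to 39860 CPM in terminal combination tumours, with none of the 12 at 0 in any library. Of 12 Schwann lineage markers, those for the labelled nerve sheath origin, Sox10, the lineage factor of Schwann cells, was at 0 in 3 libraries and at most 2.10 CPM, and Foxd3 was at 0 in 5. Others were present in every library, among them Pmp22 (25.6 to 176.4 CPM), Gap43 (4.83 to 208.5 CPM), Egr2 (3.09 to 114.6 CPM) and Mbp (5.38 to 38.6 CPM), and the 12 summed to 82.6 to 432.1 CPM. Fibroblast and mesenchymal markers summed to 20150 to 39210 CPM. In bulk tissue, fewer cells of a type and less RNA per cell cannot be told apart. A title ending, FFT, on 4 libraries (vehicle replicates 1 and 2, and replicate 1 of each treated group) is not explained in the labels.

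Cdk4 is the member whose promoter is shown. Its RNA level and that of Myc, a factor long known to act on Cdk4 through CACGTG sites (E-boxes), were both measured. The RefSeq window for Cdk4 on GRCm38.p6, plus strand, chr10:127063285-127063584, is printed with its E-boxes in capitals.
Cdk4 promoter: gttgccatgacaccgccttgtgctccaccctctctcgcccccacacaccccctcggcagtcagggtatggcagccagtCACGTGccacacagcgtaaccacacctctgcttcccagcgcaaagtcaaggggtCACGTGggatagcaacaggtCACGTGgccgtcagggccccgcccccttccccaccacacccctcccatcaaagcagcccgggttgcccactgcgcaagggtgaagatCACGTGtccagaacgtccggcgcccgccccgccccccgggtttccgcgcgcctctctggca
The window covers 250 bases before and 50 after the annotated start and holds 4 E-boxes, which begin at −172, −118, −98 and −11 from that start. CACGTG reads the same on both strands and occurred in 7.15% of the 32851 mouse windows of this length, and 8 windows (0.0244%) held 4 or more. The Cdk6 window held 1, at −220, and both Ccnd3 windows held none. The member printed is thus the one with the most E-boxes, and Ccnd1 and Ccnd2 had no window to search. No window of Cdk4, Cdk6 or Ccnd3 contained the letters TGACGTCA (a CRE, in 1.79% of windows), TGANTCA (AP-1, 7.81%) or TTTNGCGC (E2F, 1.38%) on either strand. These are matches of letters and show no binding.

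Ccnd1, which encodes cyclin D1, was the most abundant member. It lies on chromosome 7 (GRCm38, 144929931 to 144939925, minus strand; ENSMUSG00000070348). Vehicle replicates 1 to 4 stood at 638.9, 805.7, 293.1 and 912.8 CPM. Regressing replicates stood at 944.6, 1033, 1392 and 599 CPM, and terminal combination replicates at 601.6, 1314, 1538 and 1013 CPM. All 3 groups overlapped, with the lowest value in vehicle replicate 3 and the highest in terminal combination replicate 3. Group means were 663 ± 271, 992 ± 326 and 1117 ± 405 CPM (SD, n = 4) in vehicle, regressing and terminal combination tumours.

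Ccnd2, which encodes cyclin D2, varied most within groups. It lies on chromosome 6 (127125162 to 127152193, minus strand; ENSMUSG00000000184). The vehicle tumours held 146, 29.2, 169.3 and 87.3 CPM, the regressing tumours 92.3, 110.7, 278.3 and 177.7 CPM, and the terminal combination tumours 215.4, 201.3, 304.4 and 245 CPM. Every terminal combination tumour was above every vehicle tumour, while the regressing tumours overlapped both groups. Such separation, higher in terminal combination tumours, was seen for 1.21% of all genes tested. The group means were 108 ± 62.8, 165 ± 84.2 and 242 ± 45.7 CPM (SD, n = 4) in the same order.

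Ccnd3, which encodes cyclin D3, showed no separation of groups. It lies on chromosome 17 (47505051 to 47599691, plus strand; ENSMUSG00000034165). Its levels were 167.3, 282.2, 87.2 and 133.3 CPM in vehicle, 156.2, 118.1, 147.9 and 179.5 CPM in regressing, and 233.9, 170.1, 139.6 and 205.8 CPM in terminal combination tumours. The vehicle group alone spanned the range of both treated groups. Means were 168 ± 83.2, 150 ± 25.4 and 187 ± 41.2 CPM (SD, n = 4).

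Cdk4, the kinase partner present at the higher level, was read from chromosome 10 (127063534 to 127067920, plus strand; ENSMUSG00000006728). Vehicle tumours held 350.4, 506.8, 443.8 and 420.3 CPM. Regressing tumours held 278.7, 374.6, 380.9 and 292.9 CPM, and terminal combination tumours 545.8, 268.2, 354.9 and 293.5 CPM. Terminal combination replicate 1 was the highest of all 12 and replicate 2 of the same group the lowest. Group means were 430 ± 64.6, 332 ± 53.5 and 366 ± 125 CPM (SD, n = 4).

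Cdk6, the second kinase that binds D cyclins, lies on chromosome 5 (3341485 to 3531008, plus strand; ENSMUSG00000040274). It stood at 57.4, 50.9, 58.6 and 69.0 CPM in vehicle tumours. The regressing values were 72.8, 59.4, 77.1 and 63.7 CPM and the terminal combination values 55.0, 65.7, 94.8 and 127.6 CPM. Replicates 3 and 4 of the terminal combination group were above all other tumours, and replicates 1 and 2 lay within the range of the other groups. Means were 59.0 ± 7.51, 68.2 ± 8.11 and 85.8 ± 32.6 CPM (SD, n = 4).

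**Figure D1:**
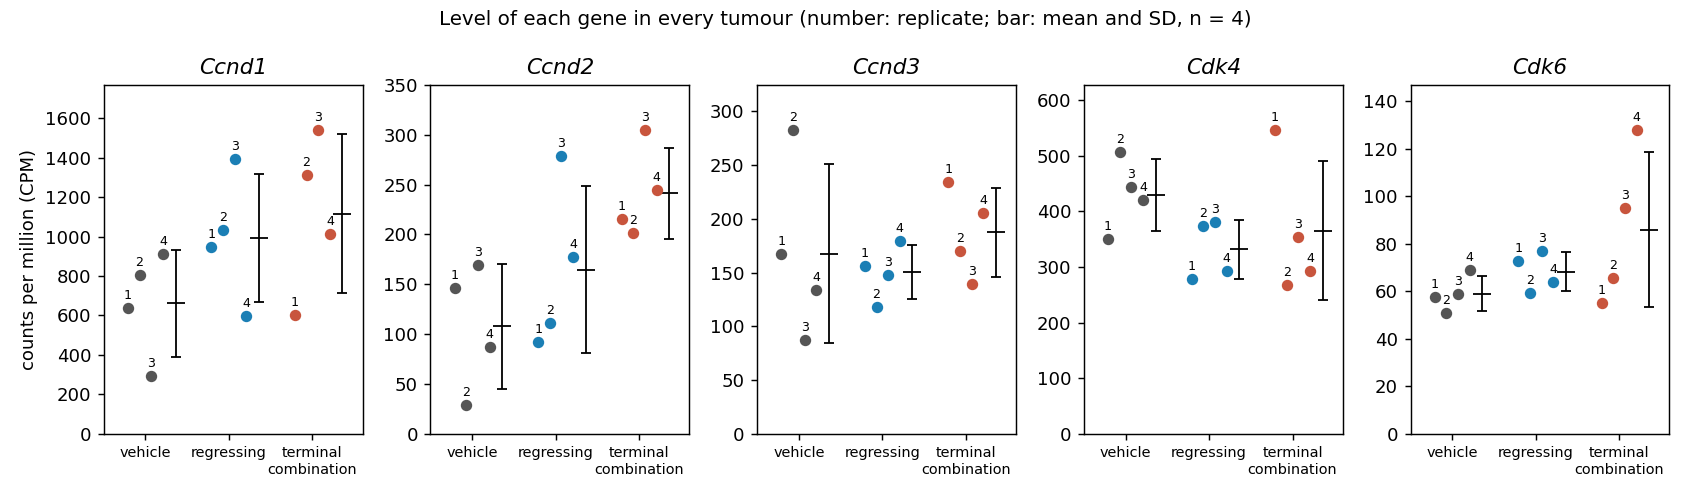
Level of each gene in CPM (vertical axis, own scale per panel) in every tumour of the vehicle, regressing and terminal combination groups, with replicate numbers beside the points and bars for the mean and SD of 4 tumours. The terminal combination points for Ccnd2 (201.3 to 304.4 CPM) all lie above the vehicle points, and replicate 1 of that group is the highest point for Cdk4 (545.8 CPM).

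Between genes, the order per length was steep. Averaged over the 12 tumours, Ccnd1 stood at 196 CPM per kb, rank 249 of the 15650 genes tested, and Cdk4 at 116 CPM per kb, rank 426. Ccnd3 (19.2 CPM per kb) and Ccnd2 (18.2 CPM per kb) were nearly level, and which was higher differed between tumours. Cdk6, at 5.08 CPM per kb, ranked 7636, near the middle of all tested genes. Within groups, the pooled SD on the log2 CPM scale was 0.79 for Ccnd2, 0.62 for Ccnd1, 0.47 for Ccnd3, 0.34 for Cdk6 and 0.32 for Cdk4, beside a median of 0.43 over all tested genes. The cyclins thus spread more than the median gene between tumours of a group, and the kinases less.

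Cyclin D1 transcripts made up most of the D cyclin pool in each tumour. The Ccnd1 share of the summed per-length level was 80.1 ± 8.29% in vehicle, 85.1 ± 5.97% in regressing and 81.9 ± 7.15% in terminal combination tumours (SD, n = 4). The Ccnd2 share ran from 1.51% in vehicle replicate 2 to 19.96% in vehicle replicate 3, and the Ccnd3 share from 4.24% to 15.6%. Cdk4 made up 90.8% to 97.7% of the summed per-length Cdk4 and Cdk6 level, the lowest share being in terminal combination replicate 4. These shares depend on the exon lengths used. On CPM, not divided by length, the Ccnd1 share ran from 53.3% to 81.9% and the Cdk4 share from 69.7% to 90.9%. The summed D cyclins per summed kinase, both per kb, gave 1.52, 1.29, 0.641 and 1.63 in vehicle tumours. Regressing tumours gave 2.51, 2.05, 2.79 and 1.76, all above the vehicle values. Terminal combination tumours gave 1.03, 3.67, 3.23 and 2.66, with replicate 1 inside the vehicle range and the other 3 above it. This ratio was formed after the values were seen and was not tested, and no background from other ratios is given for the separation. Its denominator is mostly Cdk4, which was lower where skeletal muscle transcripts were higher, as described below.

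**Figure D2:**
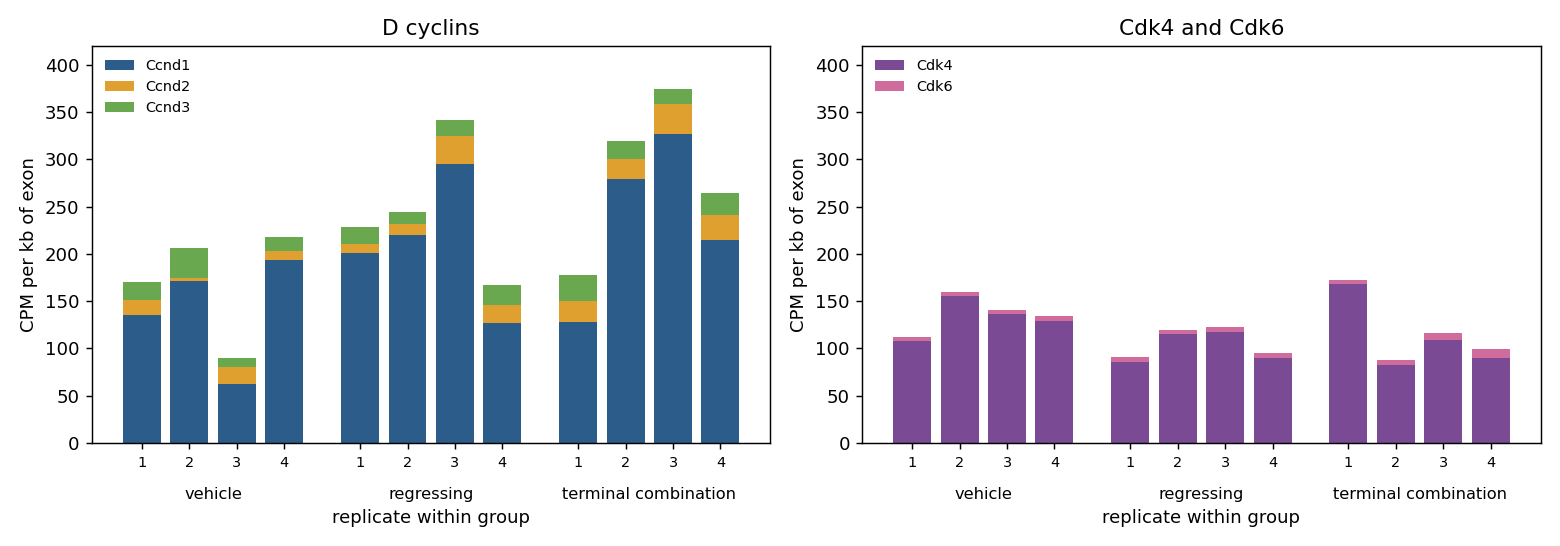
Stacked levels in CPM per kb of exon (vertical axis) for each tumour (horizontal axis, replicates by group), D cyclins on the left and Cdk4 with Cdk6 on the right, on the same scale. Ccnd1 and Cdk4 fill most of every bar, and the D cyclin bar of vehicle replicate 3 (90.2 CPM per kb) is the lowest.

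The first comparison asks how the regressing tumours differed from vehicle tumours, and no member passed the test. Ccnd1 had a log2 difference of 0.58 (95% interval −0.26 to 1.43) and Ccnd2 of 0.61 (−0.43 to 1.65). Ccnd3, with −0.16 (−0.83 to 0.52), and Cdk6, with 0.21 (−0.30 to 0.72), had estimates closer to 0, and Cdk4 had −0.38 (−0.88 to 0.13). Without vehicle replicate 3 or regressing replicate 3 the Ccnd1 value was 0.35 or 0.37. The Ccnd2 value was 0.29 without vehicle replicate 2, 0.93 without vehicle replicate 3 and 0.23 without regressing replicate 3. The edgeR quasi-likelihood adjusted p ran from 0.511 for Cdk4 to 0.853 for Ccnd3. EdgeR called 0% of all genes in this comparison, with 12.7% at an unadjusted p under 0.05. DESeq2 called 3.09% of all genes and none of the 5 members. The intervals reach folds of 2.69 for Ccnd1 and 3.13 for Ccnd2, so a missed threshold here does not show that the groups were alike.

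The second comparison sets terminal combination tumours against vehicle tumours of the same harvest stage. Ccnd2 had the largest estimate, a log2 difference of 1.16 ± 0.48 (SE; 95% interval 0.11 to 2.21), with an unadjusted p of 0.0328 and an adjusted p of 0.819 in edgeR. Cdk6 had 0.54 ± 0.23 (SE; 0.03 to 1.05), with an unadjusted p of 0.0408 and an adjusted p of 0.819 in edgeR, and 0.28 without terminal combination replicate 4. Ccnd1 had 0.75 (−0.09 to 1.60), Ccnd3 0.16 (−0.51 to 0.84) and Cdk4 −0.24 (−0.74 to 0.27). So 2 of the 5 members were higher at an unadjusted p under 0.05, beside 3.35% of all genes. None passed after adjustment, when edgeR called 0% of all genes (5.94% in either direction unadjusted) and DESeq2 0.0895%. By DESeq2 the adjusted p was 0.481 for Ccnd2 and 0.576 for Cdk6.

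The third comparison sets the treated groups against each other, terminal combination minus regressing. All 5 estimates were positive, from 0.14 for Cdk4 (95% interval −0.36 to 0.64) through 0.17 for Ccnd1 (−0.67 to 1.01), 0.32 for Ccnd3 (−0.36 to 0.99) and 0.33 for Cdk6 (−0.18 to 0.84) to 0.55 for Ccnd2 (−0.49 to 1.59). The groups overlapped for every member, and the edgeR adjusted p ran from 0.768 to 0.939. EdgeR called 0% of all genes here, with 7.02% at an unadjusted p under 0.05, and DESeq2 called 0.326%, with none of the members. The Ccnd1 estimate was −0.04 without terminal combination replicate 3 and −0.01 without regressing replicate 4, and the Cdk4 estimate was −0.12 without terminal combination replicate 1. In the test for any difference among the 3 groups, the edgeR adjusted p was lowest for Ccnd2, at 0.567, and highest for Ccnd3, at 0.862. EdgeR called 0% of all genes in that test, with 9.46% at an unadjusted p under 0.05, and DESeq2 1.67%.

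**Figure D3:**
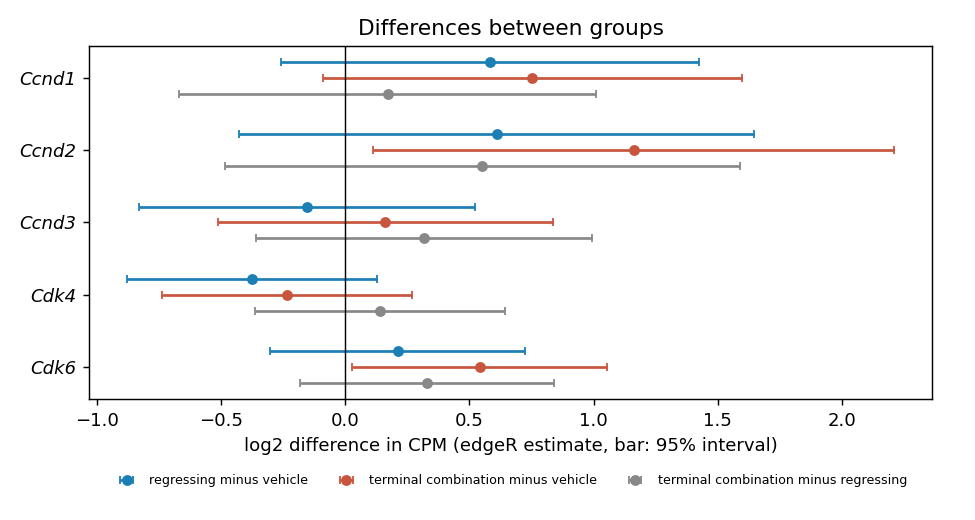
EdgeR log2 differences in CPM (horizontal axis) for the 5 genes in the 3 comparisons, with 95% intervals as bars and a line at 0. Only the terminal combination minus vehicle intervals of Ccnd2 (0.11 to 2.21) and Cdk6 (0.03 to 1.05) lie wholly above 0, and neither passed after adjustment (adjusted p = 0.819 for both).

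The high Cdk4 value of terminal combination replicate 1 came together with the rest of its chromosome. In that tumour Cdk4 was 0.58 log2 units above its median over the 12 tumours. Of the 26 tested genes that start within 500 kb of Cdk4, 23 were above their own medians there, with a median deviation of 0.75. Tspan31, the nearest tested gene above Cdk4, held 231.5 CPM in this tumour and 104.4 to 156.7 CPM in the others, while March9, the nearest on the other side, held 2.76 CPM, its lowest value. Over chromosome 10 as a whole, 629 of the 751 other tested genes (83.8%) were above their medians, and the median deviation was 0.54. In the other 11 libraries the chromosome 10 median lay between −0.08 and 0.03. Terminal combination replicate 1 also had high medians for chromosomes 3 (0.50) and 15 (0.48), and its other chromosomes ran from −0.21 to 0.17. Relative to the chromosome 10 median, Cdk4 in that tumour was 0.04 above its own median. With each chromosome's median as an offset, the Cdk4 log2 difference of terminal combination from regressing was −0.04 (adjusted p = 0.976 in edgeR). DNA was not analysed here, and the cause of the chromosome-wide difference was not tested.

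**Figure D4:**
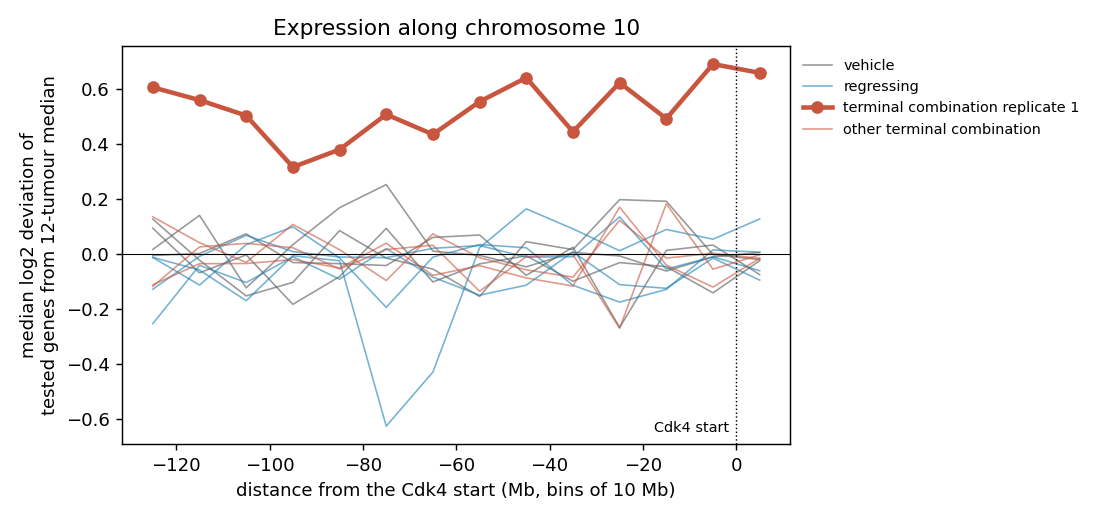
Median log2 deviation of tested genes from their 12-tumour medians (vertical axis) in bins of 10 Mb along chromosome 10 by distance from the Cdk4 start (horizontal axis), 1 line per tumour. Terminal combination replicate 1 lies between 0.32 and 0.69 in every bin, and the lowest point, −0.63, belongs to regressing replicate 4.

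For each other member, the value farthest from its median did not come with a shift of its whole chromosome. Ccnd2 in vehicle replicate 2 was 2.57 log2 units under its median. There 8 of its 9 tested neighbours within 500 kb were also under theirs, with a median of −0.44. Tpi-rs11, the nearest tested gene, stood at 2.36 CPM, its lowest value. Tigar, a regulator of sugar metabolism and the nearest on the other side, stood at 3.93 CPM, also its lowest. The chromosome 6 median in that tumour was 0.01. For Ccnd1 in vehicle replicate 3, 1.66 under its median, 4 of 7 neighbours were on the same side, with a median of −0.06. For Cdk6 in terminal combination replicate 4, 0.98 above its median, 3 of 8 were, with a median of −0.02. For Ccnd3 in vehicle replicate 3, 0.89 under its median, 4 of 14 were. The medians of chromosomes 7, 5 and 17 in these tumours lay between −0.04 and 0.01. Ccnd3 was also 0.53 above its median in terminal combination replicate 1. There 11 of its 14 neighbours were on the same side, with a median of 0.44, and the chromosome 17 median was 0.09. In vehicle replicate 2, where Ccnd3 was 0.80 above its median, 4 of 14 were, with a median of −0.13.

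Cdk4 was lower where skeletal muscle transcripts were higher. The muscle score, the mean log2 CPM of the 12 muscle genes, was 9.33, 5.37, 6.38 and 7.51 in vehicle replicates 1 to 4, which is the reverse of their order for Cdk4. It was 7.70, 11.11, 9.14 and 10 in the terminal combination tumours, again the reverse order, and 11.86, 8.13, 9.58 and 11.40 in the regressing tumours, where replicates 2 and 3 were out of order. Across the 12 tumours Pearson's r was −0.897 (two-sided permutation p = 0.00014, adjusted p = 0.0021 over 15 relations) and Spearman's rho was −0.895 (permutation p = 0.00018, adjusted 0.0027). Without the 2 tumours farthest from the median score r was −0.878 (permutation, adjusted p = 0.00615), and in the 8 libraries without the title ending it was −0.924 (adjusted p = 0.0135). The 4 libraries with the ending were too few for a value. The permutations, here and for the other relations below, shuffled tumours without regard to group. The p-values thus take in differences between groups, and no test within groups is given. Only 0.0703% of all tested genes had a lower r with this score. With the score as a covariate in edgeR, the Cdk4 log2 difference turned from −0.38 to 0.17 for regressing and from −0.24 to 0.15 for terminal combination tumours against vehicle, and the difference between treated groups from 0.14 to −0.03. The score itself differed by group, with means of 7.15 in vehicle, 10.24 in regressing and 9.49 in terminal combination tumours. Muscle content and treatment therefore cannot be told apart in this fit, and the part of muscle RNA in the Cdk4 level was not tested.

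**Figure D5:**
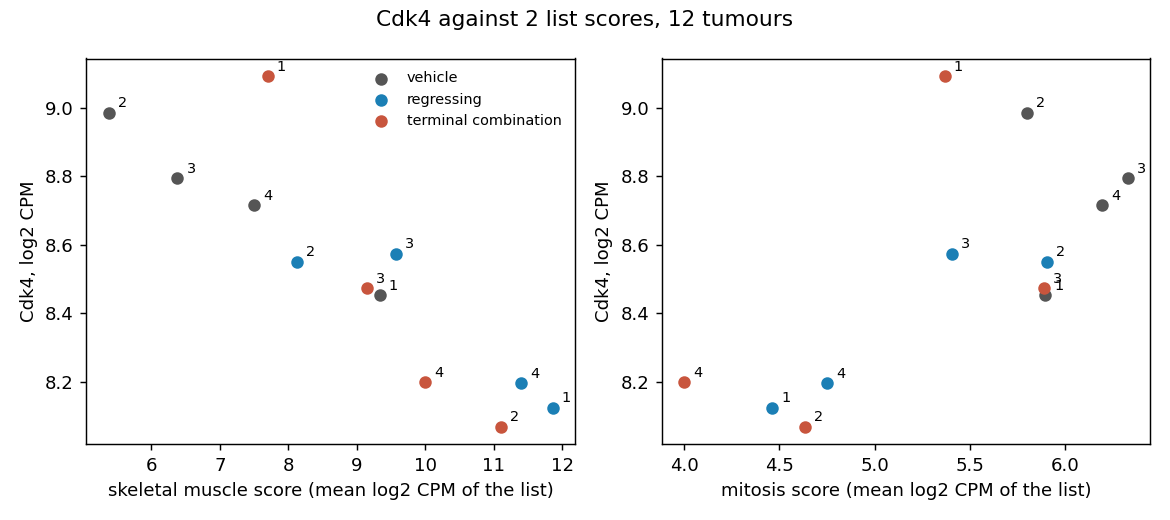
Cdk4 in log2 CPM (vertical axes) against the skeletal muscle score (left) and the mitosis score (right), each the mean log2 CPM of its list, for 12 tumours coloured by group and numbered by replicate. Points fall from upper left to lower right on the left (r = −0.897), and on the right the relation (r = 0.689) did not pass after adjustment.

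The remaining 14 relations of the members to the muscle, mitosis and MEK-ERK output scores did not pass across all 12 tumours. By Pearson's r the nearest was Cdk4 with the mitosis score, the mean log2 CPM of 20 genes of cell division, with r = 0.689 and rho = 0.580 (permutation p = 0.0148 and 0.0530, adjusted 0.111 and 0.265). In the 8 libraries without the title ending r was 0.902 (permutation, adjusted p = 0.0159), and without the 2 tumours farthest from the median score it was 0.571 (adjusted 0.431). Ccnd1, a known target of ERK signalling, had r = 0.511 and rho = 0.517 with the MEK-ERK output score (permutation p = 0.0900 and 0.0890, adjusted 0.338 and 0.267). Within the 8 libraries r was 0.712 and rho 0.881 (permutation, adjusted p = 0.138 and 0.0273), so only rho passed there. Without the 2 tumours farthest from the median score they were 0.626 and 0.588 (permutation, adjusted p = 0.393 for both). By Spearman's rho the nearest was Ccnd3 with the mitosis score, −0.671 (permutation p = 0.0196, adjusted 0.147). Its r was −0.443 with the mitosis score and 0.02 with the muscle score over all 12 (permutation, adjusted p = 0.338 and 0.960). Within the 8 libraries these were −0.896 and 0.875 (permutation, adjusted p = 0.0135 and 0.0159), so for Ccnd3 the value depended on the 4 libraries with the ending.

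Among the inhibitors that bind these kinases, Cdkn2a varied widely between the tumours of each group. Cdkn2a, taken as a Cas9 target, which encodes p16 INK4A and p19 ARF, held 217.2, 244.2, 5.08 and 112.6 CPM in vehicle tumours. It held 393.2, 7.49, 227 and 96.6 CPM in regressing and 21.2, 257.3, 125.1 and 24.8 CPM in terminal combination tumours. Low and high tumours occurred in each group, and gene-level counts carry no information on editing. Cdkn2c, which encodes the INK4 protein p18, held 40.9 to 67.7 CPM in vehicle, 27.0 to 41.7 CPM in regressing and 21.3 to 46.4 CPM in terminal combination tumours. Its log2 differences from vehicle were −0.67 and −0.82 (edgeR adjusted p = 0.327 and 0.819). Cdkn2d, which encodes p19 of the INK4 family, differed by −0.53 between the treated groups (edgeR adjusted p = 0.700). Cdkn1a, the p21 inhibitor, held 56.8 to 108.2 CPM in the regressing and 133.1 to 217.2 CPM in the terminal combination tumours, without overlap, beside 2.4% of all genes that separated in that direction. Its log2 difference there was 0.96 (edgeR adjusted p = 0.742). Vehicle tumours held 23.4 to 276.4 CPM of Cdkn1a, a range that covers both treated groups. Of the 7 inhibitors, 4 had lower estimates in regressing than in vehicle tumours and 5 in terminal combination than in vehicle tumours, and edgeR and DESeq2 called none.

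RB and E2F genes act downstream of the kinases, and none was called in any comparison by edgeR or DESeq2. Rb1 stood at 16.2 ± 6.23, 17.4 ± 5.45 and 17.5 ± 4.65 CPM in vehicle, regressing and terminal combination tumours (SD, n = 4). The RB relatives Rbl2, with a log2 difference of 0.25 for regressing against vehicle, and Rbl1, with −0.69 for terminal combination against vehicle, were not called (edgeR adjusted p = 0.541 and 0.819). E2f1, an activating E2F, had 42.2 ± 8.95, 43.1 ± 9.35 and 46.1 ± 10.6 CPM. E2f4, a repressive E2F, was below every vehicle tumour in all 4 regressing tumours (52.7 to 70.5 against 72.4 to 97.4 CPM), as 4.13% of all genes were, with a log2 difference of −0.49 (edgeR adjusted p = 0.278). Tfdp1, the E2F partner, differed from vehicle by −0.42 in the terminal combination tumours (adjusted p = 0.819), and E2f5 by 0.55 between the treated groups (adjusted p = 0.735). Of 10 E2F and DP genes, 8 had lower estimates in regressing and 7 in terminal combination tumours than in vehicle tumours. Estimates over the list ran from −0.81 (E2f2) to 0.73 (E2f6) in regressing and from −0.73 (E2f2) to 0.35 (E2f6) in terminal combination tumours, genes at the ends of the list named after their values were seen.

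The next cyclins in the cycle showed lower estimates. Ccna2, cyclin A2 of S phase and G2, stood at 143.3, 113.9, 122.7 and 152 CPM in vehicle tumours. It stood at 37.9, 112.1, 75.2 and 49.6 CPM in regressing tumours, all below vehicle, as 4.13% of all genes were, and at 121.6, 53.6, 81.7 and 27.7 CPM in terminal combination tumours, where replicate 1 overlapped vehicle. The log2 differences from vehicle were −0.95 and −0.90 (edgeR adjusted p = 0.375 and 0.819). Ccne1, cyclin E1, differed by −0.09 and −0.52, and its kinase Cdk2 by −0.42 and −0.06, with adjusted p from 0.553 to 0.984. All 4 tested genes of this list had negative estimates against vehicle in both treated groups, and Ccna1, at most 0.128 CPM, was not tested.

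Mitosis genes had lower estimates in all 20 of 20 cases in both treated groups, with medians of −0.80 in regressing and −0.91 in terminal combination tumours against vehicle, beside medians of −0.02 and 0.00 over all tested genes. Mki67, the proliferation marker Ki-67, held 61.5 to 169 CPM in vehicle, 28.7 to 63.6 CPM in regressing and 25.0 to 76.4 CPM in terminal combination tumours. EdgeR gave log2 differences of −1.48 and −1.35 (adjusted p = 0.240 and 0.819). DESeq2 called Mki67 (adjusted p = 0.0224) and the kinetochore gene Cenpf (adjusted p = 0.0465) lower in regressing than in vehicle tumours. In that comparison it called 3.09% of all genes tested. It called no mitosis gene in the other comparisons. Cenpf is named because it was called, after its value was seen. Cenpe, a mitotic motor, differed by 0.74 between the treated groups (edgeR adjusted p = 0.747). Against vehicle, the members' own medians were 0.21 and 0.54, and the estimates of the 5 genes were opposite in sign to the mitosis list, apart from Cdk4 in both treated groups and Ccnd3 in regressing tumours.

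Upstream, genes that report MEK-ERK signalling had mixed signs against vehicle: 11 of 15 were lower in regressing and 6 of 15 in terminal combination tumours. Between the treated groups 14 of 15 were higher in terminal combination tumours, with a median of 0.27 beside 0.01 over all tested genes, and none was called by edgeR or DESeq2. Dusp6, an ERK phosphatase induced by ERK itself, held 119.8 to 179.7 CPM in vehicle and 70.9 to 128.8 CPM in regressing tumours. In terminal combination tumours it held 130, 183.6, 332.3 and 67.3 CPM, and the tumour with the highest Dusp6, replicate 3, was also the highest for Ccnd1. Fosl1, an AP-1 subunit, reached 405.3 CPM in terminal combination replicate 4 and 27.8 to 125.2 CPM elsewhere. Phlda1 differed by 0.52 between the treated groups and Ier3 by −0.77 between regressing and vehicle tumours (edgeR adjusted p = 0.708 and 0.513).

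Of 18 transcription factors and cofactors known to act on D cyclin genes, 12 had lower estimates in regressing and 9 in terminal combination tumours than in vehicle tumours, and edgeR called none. Jun, an AP-1 subunit that acts on Ccnd1, stood at 2071 CPM in vehicle replicate 3 and at 157.9 to 273.3 CPM in the other 11 tumours. Myc, given beside the E-boxes of the Cdk4 window and chosen after its values were seen, stood at 384 CPM in the same tumour and at 48.5 to 138.8 CPM elsewhere. The vehicle means of both genes include that 1 tumour far above the others, and the log2 differences from vehicle were −1.98 and −1.78 for Jun and −1.27 and −1.02 for Myc (edgeR adjusted p from 0.282 to 0.819). That tumour had the lowest Ccnd1 and Ccnd3 of all 12 and the second highest Cdk4 of its group. The highest Cdk4 of that group, in vehicle replicate 2, came with the lowest Myc of the group, 75.0 CPM. Terminal combination replicate 1, with the highest Cdk4 of all 12, held 95.8 CPM of Myc. The relation of Myc to Cdk4 was not tested. Tead1, which partners YAP, was higher in each terminal combination tumour (182.1 to 232.1 CPM) than in any regressing tumour (133.1 to 162.2 CPM), as 2.4% of all genes were, with a log2 difference of 0.38 (edgeR adjusted p = 0.703).

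Of the genes that fold and activate the kinases, all 6 had lower estimates in both treated groups than in vehicle tumours, with medians of −0.28 and −0.14. Hsp90aa1, a chaperone for CDK4, held 561.6 to 750.9 CPM in vehicle and 256.6 to 568.5 CPM in regressing tumours, a log2 difference of −0.71 (edgeR adjusted p = 0.283). Hsp90ab1, its relative, differed by 0.31 between the treated groups (adjusted p = 0.742). Among 12 genes linked to D cyclin turnover, 5 had higher estimates in regressing and 9 in terminal combination tumours than in vehicle tumours. Fbxo31, an F-box protein that targets cyclin D1 after DNA damage, held 31.7 to 34.9 CPM in vehicle tumours. It held 218.8, 40.0, 46.0 and 62.6 CPM in regressing and 41.2, 75.8, 46.8 and 82.6 CPM in terminal combination tumours, all above vehicle, as 3.5% and 1.21% of all genes were. Its log2 differences were 1.49 and 0.91 (edgeR adjusted p = 0.277 and 0.836). The 4 tumours with the highest Fbxo31 were also the 4 with the highest muscle score, and the part of muscle RNA in this was not tested. Fbxo4 had a log2 difference from vehicle of 0.45 in terminal combination tumours, and Ddb1 of 0.35 between the treated groups (edgeR adjusted p = 0.832 and 0.726).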

How the data were processed

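Per the labels' protocols, RNA was isolated with RNeasy mini columns and sequenced as TruSeq Stranded mRNA libraries. The deposited files hold unnormalised counts per Ensembl gene, 1 file per library. HISAT2 2.2.1, Salmon, DESeq2 1.24.0, mm10 and GRCm38.p6 are named in the submitters' processing notes, and which tool counted, on which strand and with which annotation is not given in the sources used here. Overlapping genes may therefore share reads: on the opposite strand lie LTO1 (1771 bases of overlap with Ccnd1), Bysl (361 with Ccnd3) and Tspan31 (641 with Cdk4). These are overlaps of whole gene spans, which can include introns.

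Symbols, positions and exon lengths came from GENCODE M21, which held 54495 of 54532 identifiers. Genes kept by filterByExpr (minimum count 10, minimum total 15) were normalised by TMM and tested by the edgeR 4.0.16 quasi-likelihood test (R 4.3.3) on all 12 libraries, with Benjamini-Hochberg adjustment and a threshold of 0.05. DESeq2 1.42.0 was an alternative. Other alternatives were RLE scaling, no filter, only the groups compared, the title ending or the muscle score as a covariate, 8 libraries without the ending, leaving out muscle-rich or single libraries, and chromosome medians as offsets, the last added after seeing the data. Scores are mean log2 CPM (prior count 2), with two-sided permutation tests of 100000 resamples. The edgeR and DESeq2 group fits were also run on simulated counts with known differences set in the regressing group. This covers those fits and not the other steps. The simulated counts were drawn independently for each gene and held no muscle content or chromosome-wide differences of the kind described above. Promoter windows came from RefSeq (GRCm38.p6), in which 3 of the 5 members were matched.

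Named genes are the 5 members, the list member with the smallest p in each comparison, Rb1, Cdkn2a, Cdkn1a, Ccne1, Cdk2, E2f1, Dusp6 and Mki67, the 3 genes most like each member over 12 tumours, and the nearest tested gene on each side; a gene that meets this rule is not reported here. The members and lists were chosen with earlier results of these data known.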

Additional observations from a re-analysis of the deposited data

How the results depend on the processing

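No member was called by edgeR or DESeq2 under any alternative run. DESeq2 called 483, 14 and 51 genes of all tested for regressing against vehicle, terminal combination against vehicle and terminal combination against regressing, and 262 for any difference, where edgeR called 0. Leaving out single libraries gave 0 to 1 genes in the last comparison and for any difference (1 without terminal combination replicate 4). Some estimates turned sign. For Ccnd1 between the treated groups the log2 difference was −0.11 without the 2 muscle-rich regressing libraries, and −0.0365 to 0.379 when single libraries were left out. For Ccnd3 in regressing against vehicle it was 0.0771 with the title ending as a covariate, 0.43 in the 8 libraries without it, and −0.36 to 0.22 without single libraries. For Ccnd3 in terminal combination against vehicle, leaving out single libraries gave −0.0585 to 0.534. For Cdk4 the muscle score as a covariate gave 0.174, 0.147 and −0.0273 in the 3 comparisons. Between the treated groups Cdk4 gave −0.19 in the 8 libraries, −0.0481 without the muscle-rich pair, −0.0382 with chromosome offsets, and −0.12 to 0.26 without single libraries. The r with the MEK-ERK output score turned for Ccnd2 (from −0.25 to 0.43 and 0.33), Cdk4 (from 0.27 to −0.17 and −0.12) and Cdk6 (from −0.0753 to 0.0902 and 0.215), without the 2 farthest tumours and in the 8 libraries. The cause was not tested. The estimates of Ccnd2 and Cdk6 kept their sign in 21 of 21 alternatives in each comparison, but not their size: for regressing against vehicle Ccnd2 ran from 0.23 to 0.93 and Cdk6 from 0.0117 to 0.31. No paired analysis was possible because the labels give no replicate numbers that groups share. The number of tumours and the read depth were not compared as limits.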

Other observations

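For each member, up to 3 tested genes whose log2 CPM followed it most closely over the 12 tumours are given with Pearson's r, as a description. For Ccnd1 they were Sil1 (r = 0.941), a co-chaperone of the endoplasmic reticulum, Tmem41b (0.908) and Kcnn4 (0.900), a calcium-activated potassium channel. For Ccnd2 they were Paqr7 (0.878), Vopp1 (0.845) and Ndrg4 (0.831). For Ccnd3 they were Reck (0.937), an inhibitor of matrix metalloproteinases, Zc2hc1c (0.927) and Tmem110 (0.925). Cdk4 was followed by Aldh18a1 (0.930), an enzyme of proline synthesis, Nup37 (0.920), a nuclear pore subunit, and Fut10 (0.917). Cdk6 was followed by Rala (0.949), a small GTPase, and Rgs4 (0.908), a regulator of G protein signalling. Some lie on the chromosome of their member: Tmem41b and Kcnn4 on 7, Vopp1 on 6 and Nup37 on 10. None of the genes named was listed for more than 1 member.

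Regressing replicate 4, which had the lowest Ccnd1 of its group, held 505 CPM of summed T cell markers and 206.6 CPM of summed B cell markers. The other 11 tumours held 20.5 to 106.3 CPM and 1.91 to 17.8 CPM. Its median deviation along chromosome 10 was −0.63 over 21 genes and −0.43 over 67 genes in the bins that start −80 and −70 Mb from Cdk4, and Cdk4 itself was outside them.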
